A study of Mus musculus with 10 samples.

Results

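The colorectum of mice given miR-29a was compared with that of mice given miR-29b, on day 4 of colitis caused by dextran sodium sulfate (DSS) in the drinking water. Every gene or transcript feature that lay above the floor of the deposited values in both libraries of the miR-29a group or of the miR-29b group was a member of the comparison. These were 12769 of the 23284 features. Both libraries of both groups were above the floor for 12286 of them, those of miR-29a alone for 299 and those of miR-29b alone for 184. The question was whether these 2 related microRNAs (miRNAs), given by the same route, left the tissue with different RNA levels.

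All mice were BALB/c and 7 weeks old. The mice of the miR-29a group and of the miR-29b group received 2% DSS and their miRNA in the tail vein on days 1, 2 and 3, carried by super carbonate apatite (sCA), a nanoparticle carrier. Mice given a negative control miRNA (NC-miR) in the same carrier also received 2% DSS, and their tissue was taken on day 2 or day 4, while normal mice were untreated. Each of these 5 groups had 2 libraries of RNA, from tissue that the labels call rectum in some places and colorectum in others. The labels do not say that the libraries of a group came from separate animals, so the p-values measure only the spread between these samples. The miRNAs were injected systemically, the dose is not given in the sources used here, and the tissue was sequenced whole.

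A miRNA guides a protein complex to messenger RNAs that pair with its seed, a short stretch near its 5′ end, and those messengers are then degraded or translated less. The miR-29 family is known for repressing genes of the extracellular matrix, above all collagens, and enzymes that write or erase DNA methylation. DSS damages the epithelium of the colon, which is followed by inflammation and repair.

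The mature sequences are shown because the seed is what the family shares and the remainder is what separates its members. Capitals mark the seed, bases 2 to 8 from the 5′ end. The sequences are those of RefSeq for mouse build GRCm38.p6.
miR-29a-3p: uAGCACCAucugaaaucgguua
miR-29b-3p: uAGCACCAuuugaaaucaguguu
miR-29c-3p: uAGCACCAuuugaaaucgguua

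All 3 had the same seed. Over the 22 bases of miR-29a, miR-29b differed at 4 positions, C10U, G18A, U21G and A22U (the miR-29a base first, positions counted from 1 at its 5′ end, and the miR-29b base last), and it was 1 base longer. The third member of the family, miR-29c, differed from miR-29a by C10U alone. A messenger that pairs with the seed of one therefore carries the letters TGGTGCT, which also pair with the others. Whether the administered molecules had exactly these sequences is not given in the sources used here.

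The libraries were alike in how many features they measured. In the 4 miR-29 libraries, 12789 to 12934 features were above the floor, against 12680 to 12940 over all 10 libraries, and the sequencing depth is unknown because the files give no counts. One library stood apart. Over the members, the median absolute difference between the 2 miR-29a libraries was 0.151 on the log2 scale, and that between the 2 miR-29b libraries was 0.225. Replicate 1 of miR-29b differed from the 2 miR-29a libraries by 0.182 and 0.162, and replicate 2 of miR-29b by 0.234 and 0.246. Replicate 1 of miR-29b was thus nearer to both miR-29a libraries than to its own replicate. Replicate 2 of miR-29b was the highest or lowest of the 4 libraries in 64.6% of members, against 43.9% to 46.0% for each of the other 3.

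**Figure D1:**
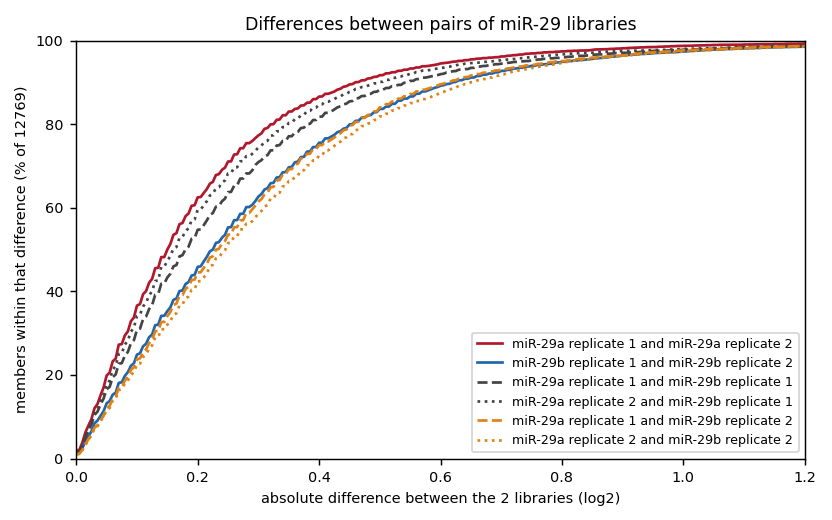
Share of the 12769 members (vertical axis, percent) whose 2 libraries lay within a given absolute log2 difference (horizontal axis), with 1 line for each of the 6 pairs of miR-29 libraries. The lines of the pairs that hold miR-29b replicate 2 lie lowest (medians 0.225 to 0.246), also for the pair within its own group, and that of the miR-29a replicates highest (median 0.151).

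The values of miR-29b replicate 2 moved with transcript length and GC content. In the shortest quintile of 12639 members with a known length its median deviation from the mean of the 10 libraries was 0.21, and in the longest quintile it was -0.21. By GC content, the medians were -0.18 in the lowest quintile and 0.22 in the highest. The other 3 libraries stayed between -0.07 and 0.10 in these quintiles. Accordingly the difference between the groups, miR-29a minus miR-29b, had a median of -0.09 in the shortest and 0.14 in the longest transcripts, and of 0.02 and 0.01 without that library. By GC content it went from 0.13 in the lowest quintile to -0.13 in the highest, and from 0.07 to -0.08 without it. The Spearman correlation of the difference across these 12639 features, which share their libraries and are not independent, was 0.29 with length and -0.37 with GC content, and -0.04 and -0.20 without miR-29b replicate 2. The part of length and GC content in single results was not tested. Of 153 genes followed singly, the difference changed by over 1.5 times or lost its sign in 68 without miR-29b replicate 2, in 54 without its replicate 1, and in 32 and 27 without miR-29a replicates 1 and 2. Without miR-29b replicate 2 it became smaller in 47 of the 68. Many single-gene differences below thus lean on 1 library, and values without it are given for genes and lists that moved most.

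**Figure D2:**
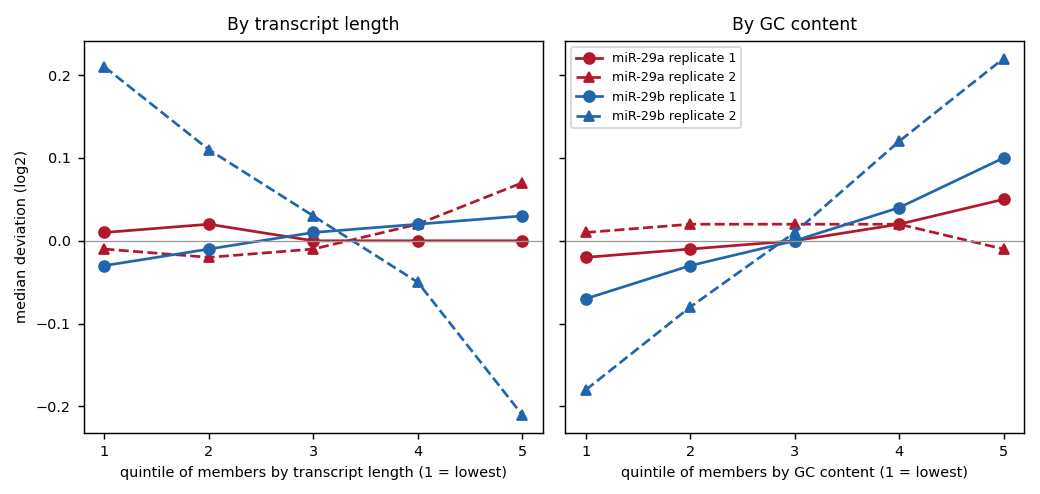
Median deviation of each miR-29 library from the mean of the 10 libraries (vertical axis, log2) in quintiles of the members by transcript length (left) and by GC content (right), from lowest to highest; points are medians and lines join the quintiles of a library. Only miR-29b replicate 2 slopes strongly, from 0.21 to -0.21 with length and from -0.18 to 0.22 with GC content.

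No feature (0.0%) differed between miR-29a and miR-29b at an adjusted p under 0.05 in limma (moderated test on log2 values, Benjamini-Hochberg adjustment over 13051 features tested). The smallest adjusted p was 0.665. At an unadjusted p under 0.05 limma had 970 features, 7.43% of those tested, 486 of them higher with miR-29a (3.72%) and 484 higher with miR-29b (3.71%). The median absolute difference between the group means was 0.16, and 92.7% of members were within 0.5 of no difference. Above 1, which is a difference of 2-fold, were 45 members, and below -1 were 52. An exact permutation test of a single feature, 2 libraries against 2, cannot go below p = 0.333.

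A p that misses the threshold does not show that both miRNAs acted alike, so the intervals matter. With a median standard error of 0.18, the median half-width of the 95% interval was 0.41. For 11162 members (87.4%) the whole interval lay within 1 of no difference, which leaves out a change of 2-fold or more between these samples. It lay within 0.5 for 4062 members (31.8%). For the others, 2 libraries in each group could not show whether the miRNAs differed by that much.

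Because most of what follows is description, its background is given here. Both libraries of miR-29a were above both of miR-29b in 20.3% of features tested, and both were below in 19.7%. The mean was higher with miR-29a in 51.8%. Counts of members in each list below are to be read against these shares. Below, each value of a library is a log2 value relative to the mean of the 2 normal libraries, each difference is miR-29a minus miR-29b on the log2 scale with its limma standard error (n = 2 libraries per group), and its adjusted p in limma was 0.665, shared by 551 members, or more. Groups are called apart where their libraries do not overlap. As the tissue is a mixture, fewer cells of a type and less RNA per cell cannot be told apart.

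The 12 members of smallest p in each direction had differences of moderate size. Lgals3 (galectin-3, a sugar-binding protein of epithelium and macrophages) was at 0.04 and 0.21 with miR-29a and at 0.93 and 0.96 with miR-29b. Both miR-29b libraries stood above all others of day 4, and the difference was -0.82 ± 0.13 (1.77-fold, 95% interval -1.13 to -0.51). NC-miR on day 4 gave -0.05 and -0.23. Guca2a, which encodes the epithelial hormone guanylin, was at -0.83 and -0.38 with miR-29a and at 0.37 and 0.57 with miR-29b, a difference of -1.08 ± 0.22 (2.11-fold). Fabp6, a bile acid binding protein of intestinal epithelium, had the widest gap of the 12, with -0.45 and -0.47 against 1.21 and 0.76 (-1.44 ± 0.34, 2.72-fold). Krt8, a keratin of simple epithelia, was at 0.07 and 0.20 with miR-29a and at 0.63 and 0.77 with miR-29b (-0.57 ± 0.13).

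Id1, an inhibitor of DNA-binding transcription factors and a target of bone morphogenetic protein signalling, was at -0.23 and 0.10 with miR-29a and at 0.67 and 1.03 with miR-29b (-0.92 ± 0.20). With NC-miR on day 4 it was lower still, at -0.92 and -0.88. Mgat4c, a glycosyltransferase gene, was at 0.36 and 0.68 against 1.23 and 1.32 (-0.76 ± 0.14), and here the NC-miR libraries of day 4, at 1.38 and 1.30, were beside miR-29b. Cox10, needed to make the haem of cytochrome oxidase, showed the same order, with 0.07 and -0.07 against 0.65 and 0.73 and NC-miR at 0.55 and 0.90. The other genes of these 12 were Lrrc59, a protein of the endoplasmic reticulum, Wdr8, the F-box gene Fbxl15, Fam171a2 and the histone gene Hist1h4i, whose near-identical copies make its value uncertain. Their differences were -0.59 to -1.06. Fam171a2 was at the floor in both miR-29a libraries, so its difference of -0.66 is a lower bound (at least 1.58-fold higher with miR-29b).

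On the other side, Serpina9, a protease inhibitor of germinal centre B cells, was at -0.04 and -0.39 with miR-29a and at -1.19 and -1.37 with miR-29b (1.06 ± 0.16, 2.09-fold). Its NC-miR libraries of day 4, at 0.07 and 0.18, were on the side of miR-29a. Dock11, an exchange factor of the small GTPase Cdc42, was at 0.10 and -0.08 against -1.11 and -0.83 (0.98 ± 0.19). Chrna3, a nicotinic acetylcholine receptor subunit of autonomic neurons, was at -0.12 and 0.01 against -0.77 and -0.86 (0.76 ± 0.15). Cep128 and Mdm1, both proteins of centrioles, and Iqcb1, a protein of cilia, differed by 0.81 ± 0.14, 0.92 ± 0.18 and 0.75 ± 0.13.

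Gkn3, a gastrokine, was at 0.72 and 1.08 with miR-29a and at -0.02, its floor, and 0.15 with miR-29b. Clec4b1, a lectin receptor of myeloid cells, and Epyc, a small proteoglycan, were at the floor in both miR-29b libraries, so that they were at least 2.36-fold and at least 2.21-fold higher with miR-29a. Rhebl1, a Rheb-like GTPase, Tmprss13, a membrane serine protease, and Ugt1a1, which conjugates bilirubin, completed the 12 at 0.96, 0.71 and 0.69. The Ugt1a genes share exons, so the value of Ugt1a1 is uncertain. Ugt1a1 was above normal in all 4 libraries, at 1.80 and 1.85 with miR-29a and at 1.04 and 1.25 with miR-29b. In all 24 genes the groups were apart, so leaving out 1 library could not turn their direction. After removal of length and GC content all 24 kept their direction. Because they were chosen by p from the same values, this is not a separate test of them.

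**Figure D3:**
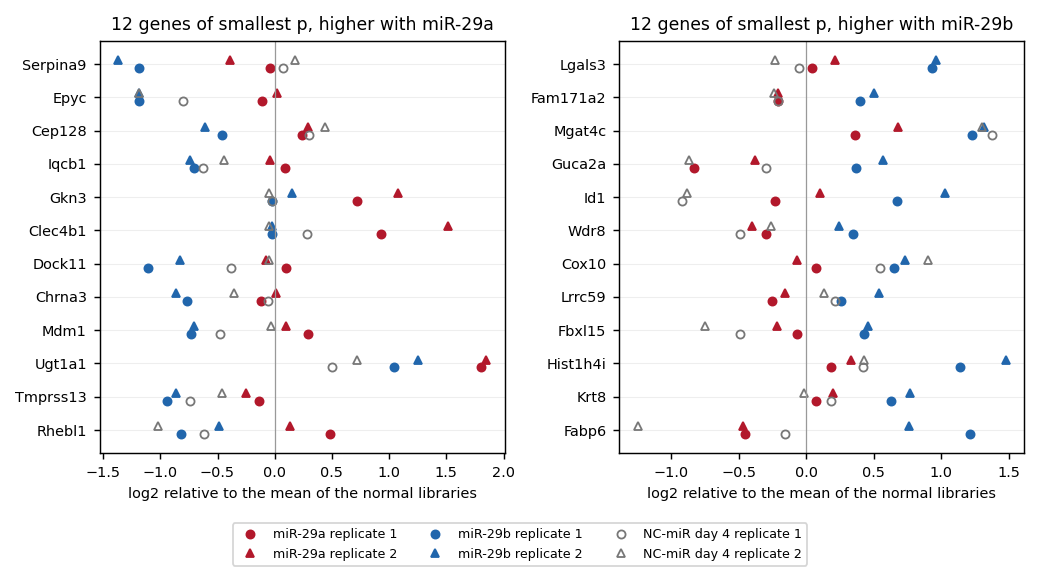
Values (horizontal axis, log2 relative to the mean of the normal libraries) of the 12 genes of smallest p that were higher with miR-29a (left) and of the 12 higher with miR-29b (right); each point is 1 library, filled for miR-29 and open for NC-miR on day 4. In every row the 2 miR-29a points lie apart from the 2 miR-29b points, as for Lgals3 at 0.04 and 0.21 against 0.93 and 0.96, while the NC-miR points lie on either side.

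Members at the floor in one group and above it in the other were few. Both libraries of miR-29b were at the floor for 85 members, and both libraries of miR-29a for 54. The largest such gaps were in small nucleolar RNAs (snoRNAs), which guide the chemical modification of ribosomal RNA. Snord33 was at the floor (-0.02 and -0.01) with miR-29a and at 10.32 and 10.53 with miR-29b. Snord35a was at 4.71 and 4.56 with miR-29a and at the floor (-4.38 in both) with miR-29b. The 2 snoRNAs thus went in opposite directions, although both lie in introns of the same ribosomal protein gene, Rpl13a (chr7:45125558-45128761, minus strand, GRCm38). They are shown as the 2 features with the largest differences; capitals mark the letters of the C box core (TGATG) and the D box (CTGA), the motifs that define this class.
Snord33 (chr7:45126864-45126947, minus strand): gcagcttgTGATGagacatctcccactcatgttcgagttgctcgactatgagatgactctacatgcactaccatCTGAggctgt
Snord35a (chr7:45126346-45126435, minus strand): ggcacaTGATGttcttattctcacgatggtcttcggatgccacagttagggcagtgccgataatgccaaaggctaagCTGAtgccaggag

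The host messenger did not share either gap, since Rpl13a was at 0.10 and 0.00 with miR-29a and at -0.38 and 0.19 with miR-29b (0.14 ± 0.21). Replicates of other groups fell on both sides of the same gaps. Snord33 was at -0.02 and 10.25 in the NC-miR libraries of day 4 and at -0.07 and 10.31 in those of day 2, and Snord35a was at -4.38 and 4.34 and at 4.07 and -4.40. The fit across all libraries therefore gave Snord33 a difference of -10.44 ± 3.59 and Snord35a one of 9.02 ± 3.69. In a fit to the 4 miR-29 libraries alone, where the replicates of each happened to be on one side, these 2 were the only calls, at an adjusted p of 0.000248 in limma. In all, 14 of 109 snoRNA features were members, with a median standard error of 1.59. Of the 14, 5 were apart with miR-29a higher (background 20.3%) and 3 with miR-29b higher (19.7%). The library kit selects polyadenylated RNA, which most snoRNAs are not.

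Beyond the snoRNAs, Moap1, a modulator of apoptosis, Eaf2, a factor of transcription elongation, and Cps1, an enzyme of the urea cycle, were at the floor with miR-29b. Cps1 was at -0.31 and -0.59 with miR-29a, at least 1.91-fold higher than with miR-29b. Moap1, at 0.38 and -1.17, and Eaf2, at 1.04 and -0.22, had unequal replicates. Their differences of 1.59 and 1.14, measured from the floor, were 0.81 and 0.51 without miR-29a replicate 1. Alpl, an alkaline phosphatase, and Il1rl1, the receptor of interleukin-33, were at the floor with miR-29a. Alpl, at 0.59 and 1.10 with miR-29b, was at least 2.05-fold higher there. Il1rl1 was at 0.18 and 1.25, and its difference of -0.82 was -0.28 without miR-29b replicate 2. Also at the floor with miR-29a was the basal keratin gene Krt14, at 0.54 and 0.80 with miR-29b, but a single NC-miR library of day 4 stood at 6.67, and its difference had an interval from -5.00 to 2.48. Snord17 and Snora74a, which were also at the floor with miR-29a, differed by -3.05 ± 1.44 (-1.66 without miR-29b replicate 2) and -2.35 ± 1.59.

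The administered miRNAs themselves were not measured, since a library of polyadenylated RNA does not hold mature miRNAs. Of the hairpin features, Mir29a, Mir29b-1 and Mir29b-2 were at the floor in all 10 libraries. Mir29c (chr1:195037547-195037634, plus strand, GRCm38.p6), which was not administered, was at 1.13 and 1.70 with miR-29a and at -0.69 and -0.48 with miR-29b. The difference of 2.00 ± 0.63 (4.01-fold) left the groups apart, but NC-miR on day 4 spanned both, at -1.35 and 0.63, and both NC-miR libraries of day 2 were at the floor. Longer transcripts overlap this feature of 88 bases, and their reads cannot be told apart from its own, so the value is uncertain.

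Sites of 4 known targets of the family are shown, with letters that pair with the seed of both miRNAs. Not every gene listed as a target had such a match. Each line gives 1 site of a gene named here, in its 3′ untranslated region (UTR), with build GRCm38 and the letters that pair with the seed in capitals, together with a following A where there is one.
Col4a5 (chrX:141688233-141688261, plus strand): tttaccactgctcccaccaaTGGTGCTAa
Col1a1 (chr11:94952518-94952546, plus strand): gtggggtgggaaggaatttcTGGTGCTAt
Bcl2l11 (chr2:128158393-128158421, plus strand): cacgcgtcatgtccctctctTGGTGCTgc
Dnmt3a (chr12:3911385-3911413, plus strand): ccttgcccaggggaggtagcTGGTGCTAg

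The fibrillar collagens were at like levels with both miRNAs. Col1a1 was at 0.44 and 0.22 with miR-29a and at 0.19 and 0.45 with miR-29b, which overlap (0.02 ± 0.22, 95% interval -0.48 to 0.51). The interval of Col3a1 was -0.32 to 0.45 and that of Col1a2 -0.39 to 0.51. A 2-fold difference between these samples of the 2 groups lay outside all 3. Col4a1 of basement membranes (0.02 ± 0.17) and the elastic fibre genes Eln (-0.06 ± 0.26) and Fbn1 (0.26 ± 0.18) did not pass either. In the NC-miR libraries of day 4 Col1a1 was at 0.30 and -0.21.

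Among 26 matrix target genes above the floor, of 39 listed, the median difference was 0.06, against 0.01 over all members, and none was called. The median was 0.03 without miR-29b replicate 2, the lowest library for 12 of the 26, and 0.10 without miR-29a replicate 1. It was 0.04 after removal of length and GC content. These genes had a median transcript length of 6105 bases, and over all members of the longest quintile the median difference was 0.14. The genes were apart with miR-29a higher in 11 (background 20.3%) and with miR-29b higher in 2 (19.7%). Col4a5, a chain of basement membrane collagen, which has 3 seed matches, led the list at 0.37 and 0.16 against -0.18 and -0.55 (0.63 ± 0.17). It was followed by Nid1 (0.33 ± 0.17), which encodes nidogen, Col15a1 (0.32 ± 0.18) and Col8a1 (0.27 ± 0.16). Nid1 had 0 seed matches in the UTR used. For each of these 4, miR-29b replicate 2 was the lowest of the 4 libraries. Without it the differences were 0.45, 0.24, 0.15 and 0.17.

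The targets in signalling and cell survival gave a like picture. Their 38 members had a median of 0.06 (0.02 without miR-29a replicate 1 and 0.13 without miR-29b replicate 1) and no call. Of the 38, 10 were apart with miR-29a higher (background 20.3%) and 4 with miR-29b higher (19.7%). Of its BH3-only activators of cell death, Bcl2l11 and Bmf were apart. Bcl2l11 was at -0.30 and -0.34 with miR-29a and at -0.89 and -0.93 with miR-29b (0.59 ± 0.18), near the NC-miR values of -0.79 and -0.99. Bmf was at 0.07 and 0.20 against -0.27 and -0.60 (0.57 ± 0.20), with NC-miR at -0.82 and -0.81. Without miR-29b replicate 2 the differences were 0.57 for Bcl2l11 and 0.41 for Bmf. Bace1, a protease that cleaves the amyloid precursor protein, was at 0.35 and 0.34 against 0.19 and -0.07 (0.28 ± 0.16). The survival factor Mcl1 (0.05 ± 0.15), the cell cycle kinase Cdk6 (0.46 ± 0.34) and the growth factor receptor Pdgfra (0.14 ± 0.21) had overlapping groups. So did the interferon receptor subunit Ifnar1 (0.08 ± 0.13), which was listed among immune targets and had 0 seed matches in the UTR used. Cdk6 was at 0.05 without miR-29b replicate 2.

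Of the DNA methylation genes, 11 of 14 were members, with a median of -0.06 (-0.02 without miR-29a replicate 2) and no call. Mbd2 and Mbd3, of the methyl-CpG-binding domain family, differed by -0.21 ± 0.13 and -0.32 ± 0.20, and by -0.15 and -0.07 without miR-29b replicate 2. The methyltransferase Dnmt3a, with 5 seed matches in its UTR, was at -0.18 and 0.21 against -0.07 and -0.42 (0.26 ± 0.22), and the demethylation enzymes Tet2 and Tet3 differed by 0.14 ± 0.20 and 0.16 ± 0.16. These 3 were at 0.09, -0.11 and 0.00 without miR-29b replicate 2. The repair glycosylase Tdg, at the floor with miR-29a, was at 0.45 and -0.62 with miR-29b. Dnmt3b, at the floor in 9 libraries, and Tet1, in 10, were not tested.

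Counted over all genes rather than known targets, 1825 of 12220 members with an annotated 3′ UTR carried TGGTGCT there on the sense strand (14.9%), and 373 carried it with a following A (3.05%). Their median differences were 0.05 and 0.07, against 0.00 for the 9979 members with neither TGGTGCT nor GGTGCTA, the 2 forms searched, which overlap in the longer match. These medians were -0.02 for both sets after removal of length and GC content, and 0.00 and 0.02 without miR-29b replicate 2. Members with a match had long transcripts, with a median of 4425 bases against 2802 without. Against NC-miR on day 4, whose 2 libraries serve both comparisons, members with the longer match had medians of 0.00 with miR-29a and -0.07 with miR-29b. Members without a match had 0.02 and 0.04. Relative to normal, the longer match had medians of -0.03 and -0.13 in miR-29b replicates 1 and 2. With miR-29a they were -0.03 and 0.00. Length and GC content were not removed from the comparison with NC-miR, and their part in it was not tested.

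Of the gene groups, the immediate early genes differed the most among lists of 5 or more members. These are transcription factors and regulators that cells switch on within minutes of a stimulus. All 19 members of 24 listed had a lower mean with miR-29a (background 48.2%), 13 were apart in that direction (19.7%) and 8 had an unadjusted p under 0.05 (3.71%), with a median of -0.86 and no call. Jun was at -0.55 and -0.27 with miR-29a and at 0.16 and 0.95 with miR-29b (-0.97 ± 0.25). Ier2 was at 0.06 and -0.17 against 0.52 and 1.47 (-1.05 ± 0.30). In both, the 2 miR-29b libraries were above the miR-29a and the NC-miR libraries of day 4.

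Junb (-1.06 ± 0.38) and Jund (-0.65 ± 0.21), the other Jun proteins of the AP-1 factor, were apart in the same way. The high values were mostly those of 1 library. The medians of the list were 0.06 and 0.09 with miR-29a, 0.32 in replicate 1 of miR-29b and 1.39 in its replicate 2, with 0.30 and -0.16 for NC-miR on day 4. Egr1 reached 4.37 in miR-29b replicate 2 and 1.70 in replicate 1, against 0.34 and 1.35 with miR-29a. Without miR-29b replicate 2 the median was -0.46 (Jun and Ier2 were both at -0.57), and 17 of 19 were lower with miR-29a. After removal of length and GC content it was -0.80.

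**Figure D4:**
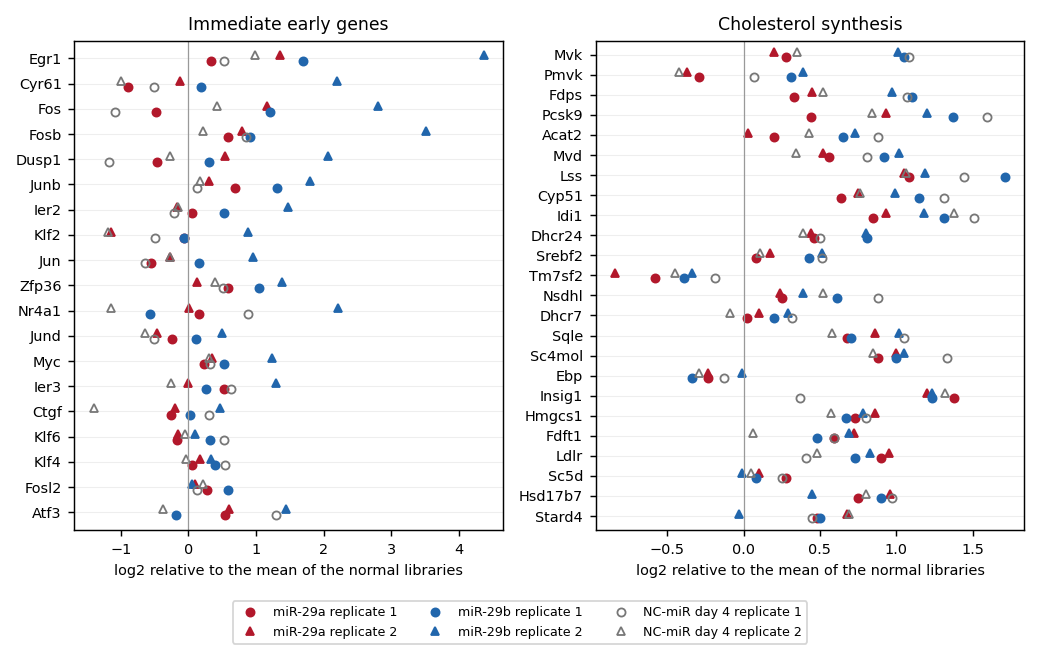
Values (horizontal axis, log2 relative to the mean of the normal libraries) of the 19 immediate early genes (left) and 24 of the 25 cholesterol synthesis genes (right) above the floor, ordered by the difference between the groups; each point is 1 library, filled for miR-29 and open for NC-miR on day 4. Replicate 2 of miR-29b is far to the right for many immediate early genes (Egr1 at 4.37), whereas for the upper sterol genes both miR-29b points lie together (Mvk at 1.05 and 1.01).

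Genes of cholesterol synthesis gave smaller but closer differences. With 25 of 26 genes measured, 15 were apart with miR-29b higher (background 19.7%) and 3 with miR-29a higher (20.3%). Of the 25, 7 had an unadjusted p under 0.05 in limma, all higher with miR-29b (3.71%), and the median was -0.26. The kinases of the mevalonate pathway stood at the top. Mvk was at 0.28 and 0.20 with miR-29a and at 1.05 and 1.01 with miR-29b (-0.79 ± 0.23, 1.73-fold). Pmvk, which acts next, was at -0.29 and -0.37 against 0.31 and 0.39 (-0.68 ± 0.20).

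Fdps, which makes farnesyl diphosphate, was at 0.33 and 0.45 against 1.10 and 0.97 (-0.65 ± 0.22), and Acat2, which supplies the first intermediate, at 0.20 and 0.03 against 0.65 and 0.73 (-0.57 ± 0.18). Here the 2 miR-29b libraries agreed, and the list's median was -0.30 without replicate 2 and -0.22 after removal of length and GC content. The NC-miR libraries of day 4 lay apart from each other, with Mvk at 1.08 and 0.35. Sqle, the squalene epoxidase of a later step, named after its values were seen, had overlapping groups (-0.09 ± 0.20).

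The unfolded protein response is how cells handle misfolded protein in the endoplasmic reticulum. Of its 23 members, 11 were apart with miR-29b higher (background 19.7%) and none with miR-29a higher (20.3%). The median was -0.12, and 7 members had an unadjusted p under 0.05 in limma, all higher with miR-29b (3.71%). They were chaperones and their partners. Calr (calreticulin) was at -0.11 in both miR-29a libraries and at 0.25 and 0.64 with miR-29b (-0.55 ± 0.17). Hyou1 was at -0.17 in both against 0.14 and 0.46 (-0.47 ± 0.15), and Dnajb11 at -0.08 and -0.05 against 0.21 and 0.59 (-0.47 ± 0.15). Sdf2l1 differed by -0.46 ± 0.17 (-0.28 without miR-29a replicate 2). Replicate 2 of miR-29b was the highest of the 4 libraries for 14 of the 23 members. Without it Calr, Hyou1 and Dnajb11 were at -0.36, -0.32 and -0.27, and the median of the list was -0.13. NC-miR on day 4 was on the side of miR-29b, with Calr at 0.47 and 0.18.

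Markers of goblet cells, which secrete mucus, were lower with miR-29a in 15 of 16 members (background 48.2%), with a median of -0.27. Of the 16, 9 were apart in that direction (19.7%) and none in the other (20.3%). Agr2, a disulfide isomerase needed for mucin, was at 0.16 and 0.26 with miR-29a and at 0.62 and 0.91 with miR-29b (-0.55 ± 0.15). Atoh1, the transcription factor that sets the secretory lineage, was at -0.01 and 0.14 against 0.43 and 0.93 (-0.61 ± 0.21). The secreted proteins Tff3 (-0.38 ± 0.16) and Zg16 (-0.49 ± 0.21) were also apart. Replicate 2 of miR-29b was again the highest of the 4 for these 4 genes. Without it Agr2 and Atoh1 were at -0.40 and -0.36, Tff3 at -0.25 and Zg16 at -0.21. The median was then -0.16, with 14 of 16 lower.

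Absorptive colonocyte markers, 26 of 32 above the floor, were mixed, with a median of -0.18. Of the 26, 11 were apart with miR-29b higher (background 19.7%) and 3 with miR-29a higher (20.3%). Besides Guca2a, they included Trpm6, a magnesium channel, at -1.52 and -1.08 against -0.60 and -0.89 (-0.55 ± 0.20), and Car1, a carbonic anhydrase, at 1.66 and 1.17 against 2.07 and 2.03 (-0.64 ± 0.29). The phosphate transporter Slc20a1 lay the other way, at 1.08 and 1.16 against 0.89 and 0.50 (0.43 ± 0.19). Enteroendocrine markers had a median of 0.02 over 16 members, 4 apart with miR-29a higher (background 20.3%) and 4 with miR-29b higher (19.7%). Among them were the hormone Pyy (-0.41 ± 0.18) and the granule protein Scg5 (0.30 ± 0.16). These were at -0.23 without miR-29a replicate 1 and at 0.13 without miR-29b replicate 1, and the median of the list lay between -0.14 and 0.14 with 1 library left out.

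Epithelial antimicrobial and stress genes had a median of -0.33 over 15 members. Of the 15, 6 were apart with miR-29b higher (background 19.7%) and 2 with miR-29a higher (20.3%). Slpi, a protease inhibitor, was at 0.15 and 0.31 against 1.99 and 0.81 (-1.17 ± 0.46), and the phospholipase Pla2g2a at 0.96 and 1.53 against 2.34 and 1.89 (-0.87 ± 0.39). Retnla (0.74 ± 0.32) and Reg4 (0.54 ± 0.27) were higher on average with miR-29a, but Retnla was at 0.34 without miR-29a replicate 1 and Reg4 at 0.14 without miR-29b replicate 1. The list's median was -0.09 without miR-29a replicate 1 and -0.06 without its replicate 2. Only 9 of 26 squamous epithelium markers, which would come from the anal canal, were above the floor. Sfn, at -0.40 and -0.59 against 0.23 and 0.49 (-0.85 ± 0.27), and Sprr1a (-1.63 ± 0.85) were higher with miR-29b and Ly6d (0.98 ± 0.89) with miR-29a. The list's medians were 0.23 and 0.32 with miR-29b, -0.16 and -0.27 with miR-29a, and 3.33 in 1 NC-miR library of day 4. The part of such cells in other epithelial differences was not tested.

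**Figure D5:**
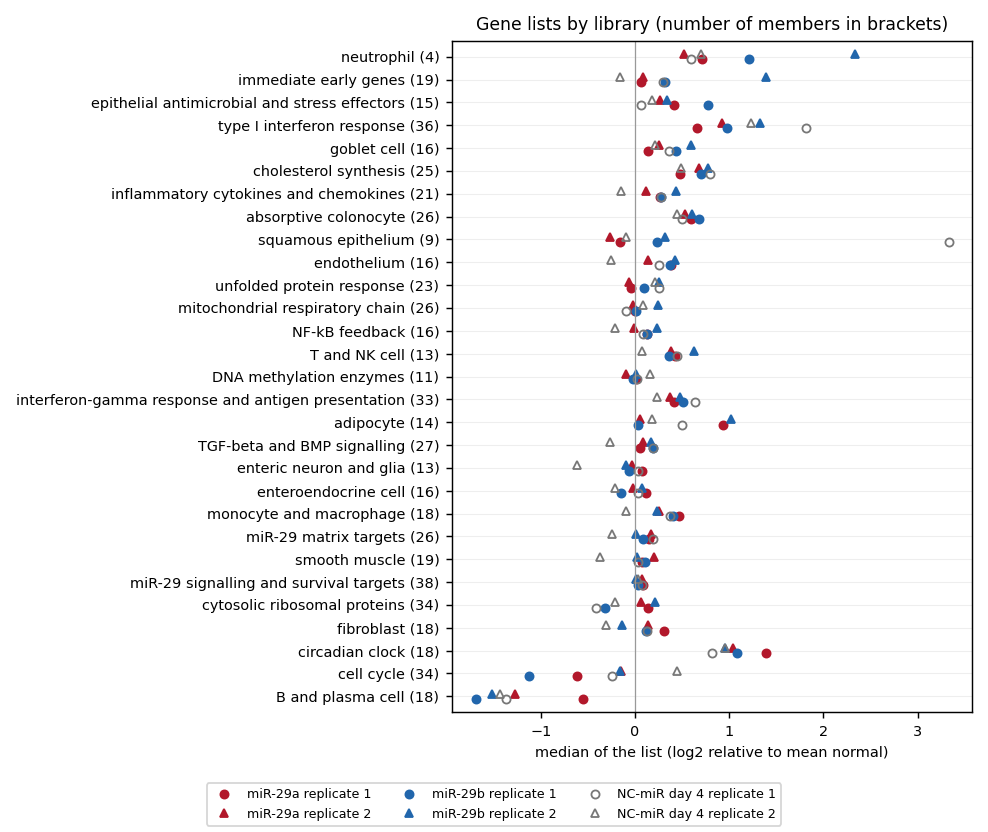
Median over the members of each of 29 gene lists (horizontal axis, log2 relative to the mean of the normal libraries) in the 4 miR-29 libraries (filled) and the NC-miR libraries of day 4 (open), ordered by the difference between miR-29a and miR-29b. For immediate early genes replicate 2 of miR-29b stands alone at 1.39, for B and plasma cells replicate 1 of miR-29a at -0.55, and for most other lists the 4 miR-29 libraries lie within 1 of each other.

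Inflammatory genes were compared because DSS colitis is an inflammation. Of 38 type I interferon response genes, 36 were above the floor, with a median of -0.32. Of the 36, 31 were lower on average with miR-29a (background 48.2%). Apart were 14 with miR-29b higher (19.7%) and 2 with miR-29a higher (20.3%). Ifi27l2a was at 1.62 and 1.82 with miR-29a and at 2.22 and 3.14 with miR-29b (-0.96 ± 0.33). Its difference was -0.50 without miR-29b replicate 2. The antiviral effectors Isg15 (-0.49 ± 0.45), Ifit1 (-0.57 ± 0.62) and Oasl2 (-0.10 ± 0.39) overlapped between the groups, and Ddx60, a helicase, was higher with miR-29a (0.43 ± 0.27, and 0.21 without miR-29a replicate 2). Bst2 (tetherin) and the sensor Dhx58 differed by -0.37 ± 0.25 (-0.02 without miR-29b replicate 2) and -0.55 ± 0.37 (-0.06 without miR-29a replicate 1). Without miR-29b replicate 2 the median was -0.07, with 23 of 36 lower, and without miR-29b replicate 1 it was -0.61.

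Antigen presentation genes and targets of interferon-gamma had a median of -0.03 over 33 members. The classical class I genes H2-K1, at 0.37 and 0.36 against 0.73 and 1.08 (-0.54 ± 0.19), and H2-D1 (-0.43 ± 0.18) were higher with miR-29b, but these near-identical genes may share reads. Ubd, a ubiquitin-like modifier, lay the other way at 0.90 and 0.93 against 0.28 and 0.48 (0.54 ± 0.14), above both NC-miR libraries at -0.10 and 0.08. Irf1, a transcription factor of the interferon-gamma response, differed by -0.23 ± 0.15 (-0.12 without miR-29b replicate 1). Ifng and its regulator Tbx21 were at the floor in all 10 libraries.

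Cytokines and chemokines had a median of -0.21 over 21 of 39 genes, which was -0.01 without miR-29b replicate 2. Of the 21, 4 were apart with miR-29b higher (background 19.7%) and 2 with miR-29a higher (20.3%). The chemokine Ccl19 differed by -1.18 ± 0.54, the cytokine Lif, at its floor or near it with miR-29a, by -0.41 ± 0.14, Il33 by 0.56 ± 0.27 and Ccl6 by 0.21 ± 0.16. Ccl19 was at -0.43 without miR-29b replicate 2, and Il33 and Ccl6 were at 0.33 and 0.04 without its replicate 1. Il23a was at the floor throughout. Inhibitors and subunits of NF-kB, a central factor of inflammation, had a median of -0.12 (-0.07 without miR-29a replicate 2). Of the 16 members, 7 were apart with miR-29b higher (background 19.7%) and none with miR-29a higher (20.3%). Nfkbie, an inhibitor, was at -0.35 and -0.02 against 0.22 and 0.57 (-0.58 ± 0.18). The subunit Nfkb2 (-0.27 ± 0.18), the regulator Nfkbiz (-0.47 ± 0.26), the prostaglandin synthase Ptgs2 (-0.77 ± 0.43) and the brake Tnfaip3 (0.09 ± 0.24) had larger errors relative to their size. Ptgs2 was at -0.12 and Nfkbiz at -0.24 without miR-29b replicate 2, and without miR-29a replicate 1 Nfkb2 was at -0.15.

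Neutrophil markers were mostly at the floor, with 4 of 13 above it and a median of -1.09, which was -0.53 without miR-29b replicate 2 and -1.65 without its replicate 1. S100a9 was at 0.87 and 0.72 with miR-29a and at 1.70 and 2.61 with miR-29b (-1.36 ± 0.72), and its partner S100a8 at 1.02 and 0.45 against 2.05 and 2.64 (-1.61 ± 0.94). NC-miR on day 4 gave 0.03 and 1.21 for S100a9, and the intervals, -3.0 to 0.28 and -3.76 to 0.55, included no difference. Lcn2, a siderophore-binding protein that epithelium also makes, was at 0.56 and 0.58 against 0.73 and 2.06, its high value in miR-29b replicate 2 alone. Retnlg, a resistin-like protein, lay the other way, at 0.44 and 0.42 against -0.44 and -0.23 (0.76 ± 0.51).

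B and plasma cell genes went the other way. Of 18 members of 21 listed, 16 had a higher mean with miR-29a (background 51.8%), 8 were apart in that direction (20.3%) and none in the other, and the median was 0.52. Ms4a1 (CD20) was at -0.56 and -1.46 with miR-29a and at -2.10 and -1.75 with miR-29b (0.92 ± 0.36). Cxcr5, the receptor that draws B cells into follicles, was at -0.80 and -1.13 against -1.82 in both, its floor in these (0.85 ± 0.29), and Spib, a B cell and epithelial transcription factor, at 0.06 and 0.28 against -0.58 and -0.18 (0.55 ± 0.18). Igj, the joining chain of secreted antibodies, was at -0.06 and -1.12 against -2.20 and -1.68 (1.35 ± 0.56). The medians of the list were -0.55 and -1.27 with miR-29a and -1.69 and -1.52 with miR-29b, and -1.37 and -1.43 with NC-miR on day 4, all below normal. Without miR-29a replicate 1 the median difference was 0.13, and Ms4a1 was at 0.47.

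T and NK cell genes had a median of -0.11 (-0.06 without miR-29a replicate 2) over 13 of 23 members. Of the 13, 3 were apart with miR-29b higher (background 19.7%) and none with miR-29a higher (20.3%). Ncr1 of NK cells (-0.39 ± 0.23), the T cell receptor component Cd3d (-0.32 ± 0.19), Thy1 (-0.29 ± 0.19) and Klrd1 (0.43 ± 0.42) had intervals that included no difference. Cd3d was at -0.09 without miR-29b replicate 2, and Ncr1 at -0.15 without miR-29a replicate 1. The 18 monocyte and macrophage members had a median of 0.03, with Ccr2 at 0.41 ± 0.20, Emr1, a macrophage receptor, at 0.29 ± 0.23, Mpeg1 at 0.30 ± 0.26 and Itgam at -0.38 ± 0.32. Ccr2 was at 0.10 and Mpeg1 at 0.04 without miR-29b replicate 2, and without its replicate 1 Itgam was at -0.22. The median of the list was -0.09 without miR-29a replicate 1, where Emr1 was at 0.00, and 0.11 without miR-29a replicate 2.

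Fibroblast markers had a median of 0.15 over 18 members, with 8 apart and miR-29a higher (background 20.3%) and 1 with miR-29b higher (19.7%). Mfap5, a microfibril protein, was at 0.43 and 0.42 with miR-29a and at -0.27 and -0.15 with miR-29b (0.64 ± 0.21; 0.70 without miR-29b replicate 2). The proteoglycans Ogn (0.60 ± 0.21) and Lum (0.31 ± 0.16) and the protein Pi16 (0.61 ± 0.29) were apart in the same way, and were at 0.34, 0.17 and 0.24 without miR-29b replicate 2. The median was 0.11 without it and 0.34 without miR-29a replicate 2. Endothelial markers had a median of -0.13 (-0.06 without miR-29a replicate 2). Of the 16 members, 7 were apart with miR-29b higher (background 19.7%) and none with miR-29a higher (20.3%).

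Egfl7, secreted by endothelium, was at -0.05 and -0.25 with miR-29a and at 0.38 and 0.48 with miR-29b (-0.58 ± 0.17). Plvap, which forms the diaphragms of fenestrae, was at 0.28 and -0.08 against 0.70 and 0.97 (-0.74 ± 0.25), and Eng (endoglin) and Sox18 differed by -0.36 ± 0.23 and -0.45 ± 0.36 (-0.09 for Sox18 without miR-29a replicate 2). Smooth muscle (19 members) had a median of 0.06, and of 0.00 without miR-29b replicate 2. Synpo2 was at -0.23 and -0.18 with miR-29a and at -0.24 and -1.10 with miR-29b, and Mylk at -0.06 and -0.10 against -0.21 and -0.58. Their differences of 0.46 ± 0.26 and 0.32 ± 0.18 were 0.04 and 0.13 without that library. Enteric neurons and glia (13) had a median of 0.01. Elavl4 differed by 0.43 ± 0.23, and by 0.23 without miR-29b replicate 2. Erbb3 was at 0.22 and 0.47 against 0.33 and -0.66, so its 0.51 ± 0.29 came from 1 library and was 0.02 without it. Adipocyte markers (14) had a median of -0.02. The adipocyte medians by library, 0.93 and 0.05 with miR-29a and 0.03 and 1.02 with miR-29b, differed more within the groups than between them. Scd1, a desaturase, differed by -0.59 ± 0.30.

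Cell cycle genes had a higher mean with miR-29a in 28 of 34 members (background 51.8%) and a median of 0.27. Only 3 of the 34 were apart in that direction (20.3%) and none in the other (19.7%). The medians by library were -0.61 and -0.15 with miR-29a and -1.12 and -0.16 with miR-29b. Top2a, a topoisomerase of dividing cells, was at -0.63 and -0.16 against -1.95 and -0.79 (0.98 ± 0.43), Bub1 at -0.63 and -0.57 against -1.83 and -0.87 (0.75 ± 0.38) and Mki67 at -0.77 and 0.14 against -1.15 and -0.50 (0.51 ± 0.37). The motor proteins of mitosis Cenpe and Kif20a differed by 0.78 ± 0.37 (0.32 without miR-29a replicate 2) and 0.71 ± 0.34 (0.23 without miR-29b replicate 1). Without miR-29b replicate 1 the median of the list turned to -0.19, and without replicate 2 it was 0.77.

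Cytosolic ribosomal proteins had a median of 0.14 over 34 members, 6 apart with miR-29a higher (background 20.3%) and 1 with miR-29b higher (19.7%). Rpl4 was at 0.26 and 0.12 against -0.39 and 0.06 (0.36 ± 0.17), and Rpl3 and Rpl7 differed by 0.34 ± 0.17 and 0.26 ± 0.15, which were 0.13 and 0.09 without miR-29b replicate 1. Their sign too turned on 1 library, with a median of -0.14 without miR-29b replicate 1 and of 0.44 without replicate 2. Rps27, which has many near-identical copies, was below normal everywhere and uncertain (-1.04 ± 0.66, and -0.21 without miR-29b replicate 1). Subunits of the mitochondrial respiratory chain had a median of -0.12 over 26 members. Of the 26, 7 were apart with miR-29b higher (background 19.7%) and 2 with miR-29a higher (20.3%). Cox5a was at -0.45 ± 0.17, Cox5b at -0.34 ± 0.18, Uqcrc1 at -0.33 ± 0.16 and Ndufa2 at -0.31 ± 0.17. Without miR-29b replicate 2 that median was 0.01, and the 4 genes were at -0.30, -0.16, -0.14 and -0.11.

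Other pathways held single genes with close replicates. In the signalling of TGF-beta and bone morphogenetic proteins, which had a median of -0.02 over 27 members, Id3 joined Id1, at -0.62 and -0.50 with miR-29a and 0.12 and 0.18 with miR-29b (-0.71 ± 0.19). As for Id1, both NC-miR libraries of day 4, at -1.09 and -1.35, were lower than those of miR-29a. The inhibitor Smad7 (-0.37 ± 0.18) was apart in the same direction and the ligand Bmp5 (0.32 ± 0.21) in the other, at -0.24 without miR-29b replicate 1 and 0.15 without its replicate 2.

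Of the circadian clock genes, 18 of 20 were members, with a median of 0.20 (0.12 without miR-29a replicate 1). Of the 18, 8 were apart with miR-29a higher (background 20.3%) and 2 with miR-29b higher (19.7%). Hlf, an output factor of the clock, was at 1.65 and 1.22 with miR-29a and at 0.80 and 0.78 with miR-29b (0.64 ± 0.22). The clock repressor Per3 was at 2.28 and 2.22 against 1.99 and 1.64 (0.43 ± 0.15), and Tef, a factor related to Hlf, differed by 0.25 ± 0.13. Npas2, an activator of the clock, lay the other way at -1.97 and -1.66 against -1.30 and -1.26 (-0.53 ± 0.18). These 4 genes, those of smallest p in the list, were farther from normal with miR-29a than with miR-29b. For them NC-miR on day 4 was nearer to miR-29b, with Per3 at 1.53 and 1.42 and Npas2 at -1.22 and -1.42. Clock and Bhlhe40, named after their values were seen, were apart and farther from normal with miR-29b. Clock was at -0.52 and -0.35 with miR-29a and at -0.55 and -1.12 with miR-29b. Its difference of 0.40 ± 0.20 was 0.11 without miR-29b replicate 2. Bhlhe40 was at 1.13 and 0.86 against 1.35 and 1.15. The hour at which tissue was taken is not given in the labels.

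The 12 other lists with 3 members or more had median differences from -0.17 to 0.44 and no call.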

How the data were processed

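Per the labels, total RNA was turned into libraries with a stranded mRNA kit. The submitters' processing notes list mouse build mm10 and the programs Cuffnorm (2.2.1), SAMtools (0.1.19), Bowtie2 (2.2.3) and TopHat2 (2.0.13), without settings. Although the authors' header reads FPKM, the deposited numbers are on a log2 scale and relative to a baseline of the feature. The steps that made them so are not given in the sources used here. Their distances from the floor, as powers of 2, fell on a grid of 6 digits for 99.4% of 6035 values (within 0.1 of a step), against 19.7% with base e and 21.8% with base 10. A floor was recognised where at least 2 libraries had the same lowest value of a feature within 3e-05, once each library's most frequent value (-0.0427 to 0.0331) was subtracted. Its height and the depth are unknown, so no expression level is given, and a difference from a group at the floor is a lower bound.

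Of all features, 13051 had a group with both libraries above the floor and were tested. In R 4.3.3, limma 3.58.1 estimated 5 group means from the 10 libraries (5 residual and 3.26 prior degrees of freedom), with 2-sided p and Benjamini-Hochberg adjustment. The procedure was tested on simulated data. Named were the 12 members of smallest p in each direction, up to 6 per direction at the floor in 1 group, up to 4 of smallest p of each list described, and a list of genes whatever their values; provisional symbols were left out. The members and gene lists were chosen with earlier results of these data known. Length, GC content and 3′ UTR were those of the longest coding transcript of each gene in GENCODE for GRCm38, with values for 12639 members. The alternatives were other libraries in the fit, filters, scalings, variance models, a replicate block and each library left out. Chosen after seeing the data were subtraction of the library constant, removal of length and GC content, and a crossed block. Muc2 was not analysed here, and 2 genes counted in the lists are not reported by name.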

Additional observations from a re-analysis of the deposited data

How the results depend on the processing

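The count of features called was 0 in all fits with 10 libraries, and it was 2 in the fit to the 4 miR-29 libraries alone (Snord33 and Snord35a). With 1 library left out it was 0 to 1: Mir3074-1, higher with miR-29a, was called without miR-29a replicate 2, and Snhg9, higher with miR-29b, without miR-29b replicate 2, both named after their values were seen. Deviations of same-numbered libraries from their group means had correlations of -0.241 to 0.112 over the pairs of groups (-0.102 between miR-29a and miR-29b). With 2 libraries per group, these values cannot show whether the replicate numbers pair the samples. The replicate block gave 0 calls and 843 features at an unadjusted p under 0.05, against 970 without it, and the crossed block gave 0 and 951. After removal of length and GC content, with or without the replicate block, the list medians were 0.01 for signalling and survival targets, -0.08 for interferon-gamma and antigen presentation, -0.07 for TGF-beta and BMP signalling and -0.10 for absorptive colonocytes, while Eln turned to 0.04 and Tet2 to -0.05. Quantile normalization gave -0.13 for DNA methylation, -0.10 for interferon-gamma and antigen presentation, -0.23 for squamous epithelium and -0.01 for Col4a1. The cause of these shifts was not tested. With 1 library left out, list medians ranged from 0.03 to 0.10 for matrix targets, -0.07 to -0.02 for DNA methylation, -0.15 to -0.07 for NF-kB, 0.12 to 0.25 for the circadian clock, -1.31 to -0.46 for immediate early genes, -0.19 to 0.77 for the cell cycle, 0.02 to 0.13 for signalling and survival targets, -0.61 to -0.07 for type I interferon, -0.10 to -0.03 for interferon-gamma and antigen presentation, -0.21 to -0.01 for cytokines, -0.33 to -0.06 for antimicrobial genes, -0.25 to 0.01 for the respiratory chain, -0.28 to -0.12 for the unfolded protein response, -0.07 to 0.06 for TGF-beta and BMP signalling and -0.14 to 0.44 for ribosomal proteins. They ranged from -1.65 to -0.53 for neutrophils, -0.09 to 0.11 for monocytes and macrophages, -0.17 to -0.06 for T and NK cells, 0.00 to 0.08 for smooth muscle, -0.54 to 0.49 for adipocytes, -0.37 to -0.16 for goblet cells, -0.14 to 0.14 for enteroendocrine cells, -0.39 to -0.06 for squamous epithelium, 0.11 to 0.34 for fibroblasts, -0.25 to -0.06 for endothelium, -0.01 to 0.08 for enteric neurons and glia and 0.13 to 0.91 for B and plasma cells. The same ranges for genes whose sign turned were -0.11 to 0.15 for Col1a1, -0.02 to 0.06 for Col4a1, -0.16 to 0.03 for Eln, -0.11 to 0.40 for Tet2, -0.05 to 0.15 for Mcl1, -0.09 to 0.36 for Pdgfra, -0.01 to 0.18 for Ifnar1, -1.0 to 0.01 for Isg15, -0.55 to 0.35 for Oasl2, -0.15 to 0.33 for Tnfaip3, -0.07 to 0.93 for Klrd1 and -0.00 to 0.58 for Emr1. The alternative with another pseudocount was not run, since the values are not linear. Depth is unknown, and 2 libraries per group limit the precision.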
